A study of Mus musculus with 54 samples.

Results

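Late proximal tubules that lack Sglt1 were compared with tubules that have it, both from diabetic mice given an SGLT2 inhibitor. The knockout group, labelled Sglt1 KO/Akita with dapagliflozin, had 6 libraries. The control group, labelled Sglt1 WT/Akita with dapagliflozin, had 5 libraries with expression values, so 11 of the 52 libraries in the expression table entered the comparison. A sixth sample of the control group (replicate 2) has labels but no values in that table, and was not analysed here. Replicate numbers are given here in the order of deposit, since the labels hold library names and no replicate numbers. All mice of both groups were male, of the DBA strain, 14 weeks old, carried 1 Akita allele of the insulin gene (Ins2 Akita/+, a model of type 1 diabetes), and ate for 2 weeks a diet with dapagliflozin (10 mg/kg of food). They differed in Sglt1, which was +/+ in the controls and -/- in the knockouts. The labels do not say how the knockout allele was made. The rest of the series holds the same pair of genotypes in 3 other settings with 6 libraries for each genotype, namely Akita mice on vehicle, nondiabetic littermates (Ins2 +/+) on dapagliflozin and nondiabetic littermates on vehicle, and a group of wild-type Akita mice on semaglutide.

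SGLT1, encoded by Slc5a1, and SGLT2, encoded by Slc5a2, are sodium-coupled glucose carriers in the brush border of the proximal tubule. SGLT2 takes up most of the filtered glucose in the early segments, and SGLT1 takes up much of what is left in the late, straight segment called S3. When SGLT2 is inhibited, more glucose reaches S3, and a tubule without SGLT1 then has neither carrier at work. The question that this comparison addresses is which transcripts of S3 differ when SGLT1 is missing on top of SGLT2 inhibition in diabetes.

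Each sample was a pool of 70 to 80 tubule profiles, cut by laser from kidney because they stained with the lectin LTL and were negative for SGLT2. Expression is given in TPM (a level per length of transcript, scaled to the whole library). The sources used here give no read numbers, so the counting error of these values is not known. The 11 libraries had a value above 0 for 16947 to 18109 genes, and the median Pearson r across genes was 0.932 for library pairs within a genotype and 0.930 for pairs across genotypes. Mitochondrial ribosomal RNA made up 38.1% ± 6.15 (SD, n = 5) of the wild-type libraries and 31.3% ± 1.81 (n = 6) of the knockout libraries (exact permutation p = 0.0433, 0.26 after adjustment over 12 library properties). The tubules carried S3 markers in both groups. Slc7a13, an aspartate and glutamate carrier of the S3 brush border, stood at 916 ± 315 TPM in wild type and 989 ± 321 TPM in knockout. RNA of other segments was also present. Slc5a2 itself, the marker that the captured tubules were chosen to lack, stood between 3.93 and 70.9 TPM in wild type and between 7.2 and 163 TPM in knockout. Umod, a marker of the thick ascending limb, stood at 448 ± 104 and 604 ± 167 TPM. In such pools, fewer cells of a type and less RNA per cell cannot be told apart. The labels do not say that the libraries of a group came from separate animals, so p-values measure the spread between these libraries, which may be technical in part.

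Slc5a1 checked the labels. The wild-type libraries held 70.7, 84.6, 42.8, 83.1 and 85.5 TPM, and the knockout libraries held 1.28, 0.83, 1.06, 0.538, 0.795 and 0.151 TPM. Every knockout library lay below every wild-type library, and a small residue of Slc5a1 remained in each of them. Means were 73.3 ± 18.1 TPM (n = 5) and 0.776 ± 0.396 TPM (n = 6), a 94.5-fold ratio. On the log2(TPM + 1) scale, which understates the change of low genes, Slc5a1 fell by 5.38 (SE 0.21, limma adjusted p = 1.25e-25). Slc5a1 (ENSMUSG00000011034) lies on the plus strand of chromosome 5 at chr5:33104219-33162870 of GRCm38.

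Slc5a2, the target of the drug, gave no such separation. The wild-type libraries held 54, 3.93, 70.9, 14.7 and 6.94 TPM, and the knockout libraries 16.5, 29.8, 7.2, 163, 38.4 and 17.4 TPM. The groups overlapped over most of their range. The log2 difference of Slc5a2 was 0.59 with a 95% interval from -1.24 to 2.42, so that both higher and lower levels in knockout lay within the error for this gene.

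Of 15424 genes tested, 3 passed an adjusted p of 0.05, which is 0.0195% of them: Slc5a1, Abhd1 and Gm43694. Each of the 3 lies on chromosome 5. Abhd1, which encodes a protein with an alpha/beta hydrolase fold, was the gene that rose. Its wild-type libraries held 6.14, 3.75, 4.58, 5.07 and 5.59 TPM, and its knockout libraries 63, 33, 32.7, 28.6, 40.2 and 36 TPM. The lowest Abhd1 value in a knockout lay well above the highest in wild type, and knockout replicate 1 was the highest of all. The mean of Abhd1 went from 5.03 ± 0.922 TPM (n = 5) to 38.9 ± 12.4 TPM (n = 6), a 7.75-fold ratio (log2 change 2.69, 95% interval 2.25 to 3.14, limma adjusted p = 1.41e-12). Abhd1 (ENSMUSG00000006638, listed by GENCODE as a processed transcript, plus strand, chr5:30950066-30955091) overlaps Preb on the minus strand (chr5:30950853-30960361), which encodes a regulator of vesicle export from the endoplasmic reticulum. Preb stood at 154 ± 14.5 TPM in wild type and 134 ± 26.4 TPM in knockout (log2 difference -0.22, 95% interval -0.53 to 0.09). The library kit keeps the strand, but the sources used here do not say whether the authors counted by strand, and reads of Abhd1 and Preb in the shared stretch may not be separated.

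Gm43694 (ENSMUSG00000107018, plus strand, chr5:32629842-32630960), a predicted transcript that GENCODE marks as still to be verified, fell. Its wild-type libraries held 5.31, 4.74, 9.18, 5.63 and 5.22 TPM, and its knockout libraries 1.76, 0, 0, 2.4, 1.28 and 0 TPM. The groups did not overlap, and 3 of the 6 knockout libraries were listed at 0. Gm43694 fell by 2.04 on the log2 scale (SE 0.31, limma adjusted p = 0.000122). With a spread estimated from the 2 compared groups alone, the adjusted p of Gm43694 was 0.275 and the call was lost. Gm43694 lies within the gene Yes1 on the same strand (chr5:32611171-32687057), so reads of the 2 may not be separable. Yes1 itself differed by 0.10 log2 units (SE 0.15).

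**Figure D1:**
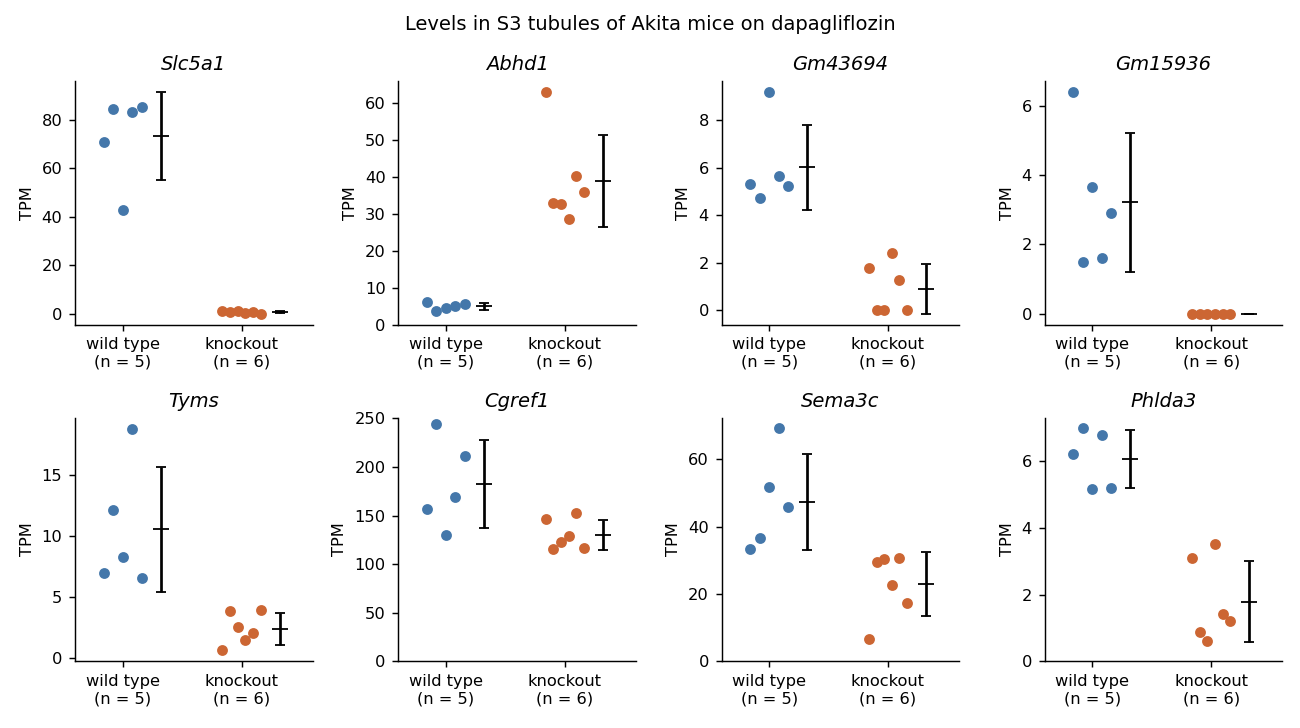
TPM of 8 genes in each library of wild-type and knockout Akita mice on dapagliflozin. Each point is a library, bars give mean and SD, and each panel has its own axis. Slc5a1, Abhd1 and Gm43694 passed the test, with no overlap between groups; among the other 5, Gm15936, Tyms, Sema3c and Phlda3 do not overlap either and Cgref1 does.

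No other gene passed. Over all tested genes the median log2 difference was -0.01, and 48.9% of genes were higher in knockout. An unadjusted p under 0.05 was reached by 509 genes (3.3%), 264 higher (1.71%) and 245 lower (1.59%). The values of the groups did not overlap for 63 genes (0.408%), 35 higher and 28 lower. The 95% interval of a gene's difference reached a median of 0.52 log2 units to either side, and for 11649 genes (75.5%) the whole interval lay within 1 log2 unit of 0. For those genes a change of more than 2-fold in TPM + 1, in either direction, is outside the interval. In genes of low TPM, a larger fold change of TPM itself can lie within it. Smaller changes were often not detectable. Among the genes with the largest fitted differences were short RNAs with a wide spread. Gm24270 was listed at 0 in each wild-type library against a knockout mean of 1209 TPM, with a standard error of 3.14 log2 units, and the mitochondrial transfer RNA mt-Tg differed by -3.57 (SE 1.56). Gm24270 and mt-Tg were picked after their values were seen.

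**Figure D2:**
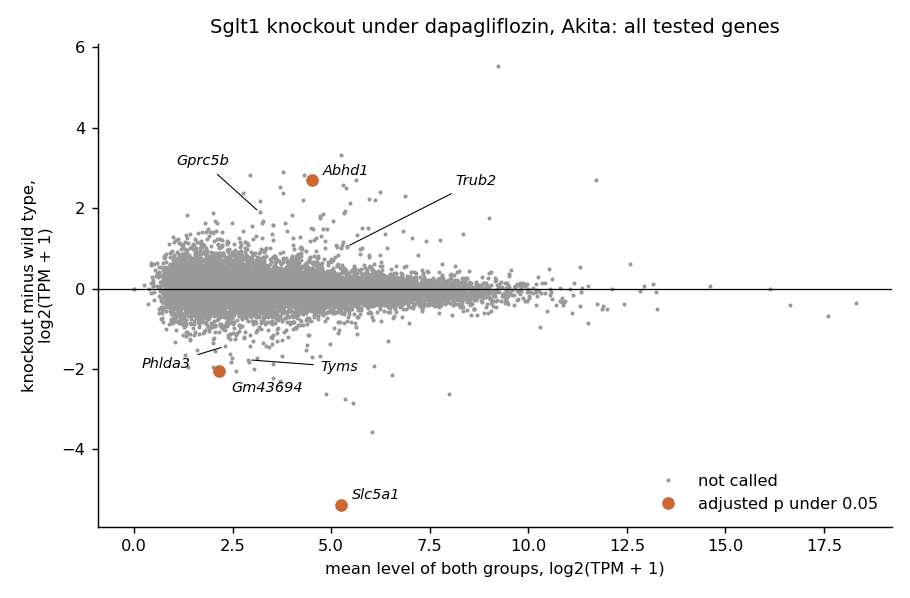
Knockout minus wild type against the mean level of both groups, both on the log2(TPM + 1) scale, for 15424 genes. The 3 genes that passed are Slc5a1 at -5.38, Gm43694 at -2.04 and Abhd1 at 2.69; names joined to a point by a line mark genes that did not pass.

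The 3 genes that passed lie within 2.2 Mb of each other. Gm43694 starts 474 kb and Abhd1 2.15 Mb before the start of Slc5a1. The genes that start within 10 Mb of Slc5a1 were described as a group, a region chosen with these calls known. Of 198 such genes in the table, 165 were tested. Their median difference was -0.02 log2 units with 79 above 0, so the group as a whole was centred where all genes were. An unadjusted p under 0.05 was reached by 14 of the 165 (8.48%, against 3.3% of all tested genes), 7 higher and 7 lower. Without the 3 genes that passed and Gm15936, a pseudogene inside Slc5a1, it was reached by 10 of 161 (6.21%), and by 29 of the 901 other genes of chromosome 5 (3.22%). The groups did not overlap for 5 of the 165 (3.03%, against 0.408% of all genes): Slc5a1, Abhd1, Gm43694, Tyms and Gm15936. Without the same 4 genes, Tyms was the 1 of 161 (0.621%).

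Tyms, which encodes thymidylate synthase, the enzyme that makes the thymidine nucleotide for DNA, came closest to passing. Its wild-type libraries held 6.94, 12.1, 8.23, 18.8 and 6.55 TPM, and its knockout libraries 0.607, 3.79, 2.54, 1.42, 2.03 and 3.88 TPM. Each knockout value of Tyms lay below each wild-type value, though wild type spread over nearly 3-fold. The difference was -1.77 log2 units (95% interval -2.54 to -1.01), with a limma adjusted p of 0.0996. Tyms (minus strand, chr5:30058202-30073617) starts 3.03 Mb from Slc5a1. Gm15936, a processed pseudogene inside Slc5a1 on the same strand (chr5:33126802-33127261), was listed at 0 in the 6 knockout libraries and at 6.4, 1.49, 3.67, 1.6 and 2.89 TPM in wild type (log2 difference -1.95, adjusted p = 0.198). Because Gm15936 lies within Slc5a1, its reads may not be separable from those of the host gene.

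The other genes near Slc5a1 with an unadjusted p under 0.05 had smaller differences. Slc5a6, which encodes the sodium-coupled carrier for biotin and pantothenate, differed by -0.98 (SE 0.33, adjusted p = 1). Rgs12, a regulator of G-protein signalling, differed by -0.74 (SE 0.27, adjusted p = 1). Cgref1, whose product is a secreted growth regulator with EF hands, starts 4.475 kb from the start of Abhd1 on the opposite strand. Cgref1 held 157, 244, 130, 169 and 212 TPM in wild type and 146, 115, 123, 129, 153 and 117 TPM in knockout, with overlap between the groups (-0.45, 95% interval -0.86 to -0.05). Xrcc2 (0.57), Zfp512 (0.53), Fam126a (0.32), Prr14l (0.28), Gm43054 (0.79) and Gm43566 (1.14) had higher values in knockout. Khk, which encodes the fructokinase that starts fructose breakdown, starts 2.18 Mb from Slc5a1. Khk stood at 524 ± 125 TPM in wild type and 476 ± 97.7 TPM in knockout (-0.13, 95% interval -0.61 to 0.35). Sema3c, a secreted guidance protein encoded farther away on the same chromosome and picked after its values were seen, held 33.4, 36.7, 51.8, 69.3 and 45.8 TPM in wild type and 6.7, 29.5, 30.3, 22.8, 30.7 and 17.5 TPM in knockout (-1.11, 95% interval -1.90 to -0.33, adjusted p = 1). The Sema3c groups did not overlap. In Akita on vehicle, Sema3c stood at 49.8 ± 11.2 TPM in wild type and 17.4 ± 8.03 TPM in knockout. The same values were 37.6 ± 16 and 18.2 ± 8.6 TPM in nondiabetic on vehicle. In nondiabetic on dapagliflozin they were 34.6 ± 10.1 and 35.8 ± 20.1 TPM.

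The bases before the RefSeq starts (GRCm38.p6) of Slc5a1 and Tyms are shown because these are the protein-coding genes near the targeted locus with the lowest log2 differences. RefSeq windows were matched for Slc5a1, Tyms and Cgref1 among the genes called in this setting or over the other 3. The 250 bases of Slc5a1 come from chr5:33103969-33104218 (plus strand), and those of Tyms from chr5:30073626-30073875 (minus strand). Capitals mark GGGCGG or its reverse complement CCGCCC, the core of the box bound by Sp1.
Slc5a1: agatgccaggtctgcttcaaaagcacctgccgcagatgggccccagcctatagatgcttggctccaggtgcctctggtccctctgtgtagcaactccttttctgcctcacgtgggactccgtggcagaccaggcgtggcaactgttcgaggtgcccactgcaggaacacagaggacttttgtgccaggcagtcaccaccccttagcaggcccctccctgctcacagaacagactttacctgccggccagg
Tyms: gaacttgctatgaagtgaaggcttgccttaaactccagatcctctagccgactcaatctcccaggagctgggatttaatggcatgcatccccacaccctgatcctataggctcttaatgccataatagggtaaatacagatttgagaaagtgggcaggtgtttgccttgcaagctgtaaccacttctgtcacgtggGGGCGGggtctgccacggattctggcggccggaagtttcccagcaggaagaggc
The Tyms window held 1 match to GGGCGG and the Slc5a1 window 0, while 32.7% of 32851 windows of the same length held a match on either strand. TATAAA, the core of the TATA box, was in neither window and in 12.4% of all. GTTAAT, a part of the site for the HNF1 factors of the proximal tubule, was in neither window and in 6.43% of all.

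**Figure D3:**
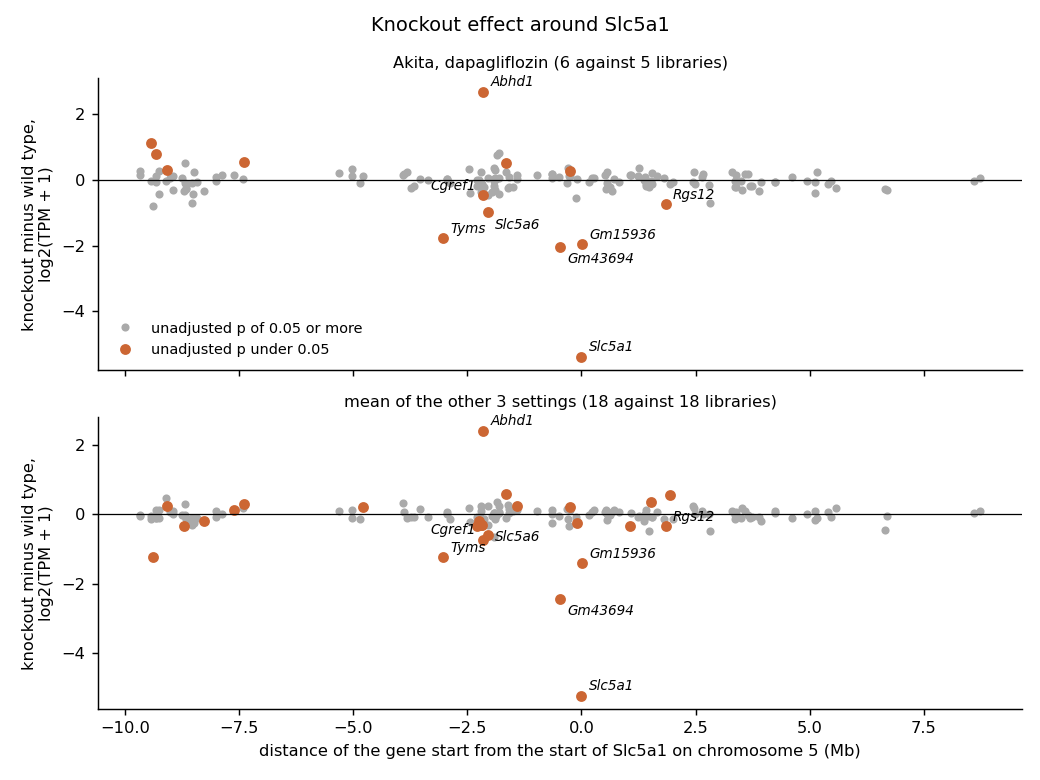
Knockout minus wild type on the log2(TPM + 1) scale for 165 genes, by distance from the start of Slc5a1 (Mb, minus values toward lower coordinates). The top panel is Akita on dapagliflozin and the bottom panel the mean of the other 3 settings; coloured points have an unadjusted p under 0.05. Abhd1 stands above and Slc5a1, Gm43694 and Gm15936 below the other genes in both panels; Tyms comes next below in the top panel and lies beside 1 unnamed gene at the left in the bottom panel.

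The same genotypes in the 3 other settings share no library with this comparison, so they give the knockout effect a second time. Averaged over Akita on vehicle and nondiabetic on either diet (18 against 18 libraries), 7 genes passed, 0.0454% of those tested, among them Slc5a1, Abhd1, Gm43694, Cgref1, Tyms and Gm15936. In Akita mice on dapagliflozin these 7 genes had the same sign, 6 of them an unadjusted p under 0.05 and 3 an adjusted one, and 1 of the 7 reached neither. The Abhd1 difference was 2.69 in this setting, against 2.36 in Akita on vehicle, 2.39 in nondiabetic on dapagliflozin and 2.49 in nondiabetic on vehicle. The Slc5a1 differences were -5.38, -5.60, -5.15 and -4.91 in that order, and those of Gm43694 were -2.04, -2.46, -2.24 and -2.62. Tyms differed by -1.77, -1.05, -1.54 and -1.10 and passed over the 3 other settings together (adjusted p = 0.00124). Cgref1 differed by -0.45, -0.58, -0.95 and -0.65 (adjusted p = 0.000107 over the other 3). Within 10 Mb of Slc5a1, 10 of 165 genes (6.06%) had an unadjusted p under 0.05 both in this setting and over the other 3, each with the same sign in both. Without Slc5a1, Abhd1, Gm43694 and Gm15936 there were 6 of 161 (3.73%), and elsewhere 52 of 15259 genes had such p-values and the same sign (0.341%).

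No gene passed a test of whether the knockout effect itself differed. With limma, 0 genes (0%) passed for dapagliflozin minus vehicle in Akita (380 at an unadjusted p under 0.05, 2.46%), 0 (0%) for Akita minus nondiabetic on dapagliflozin (504, 3.27%), and 0 (0%) for this setting minus the mean of the other 3 (354, 2.3%). The interval of that last difference ran from -0.22 to 0.78 log2 units for Abhd1, from -0.64 to 0.32 for Slc5a1, from -0.30 to 1.10 for Gm43694 and from -1.42 to 0.33 for Tyms.

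**Figure D4:**
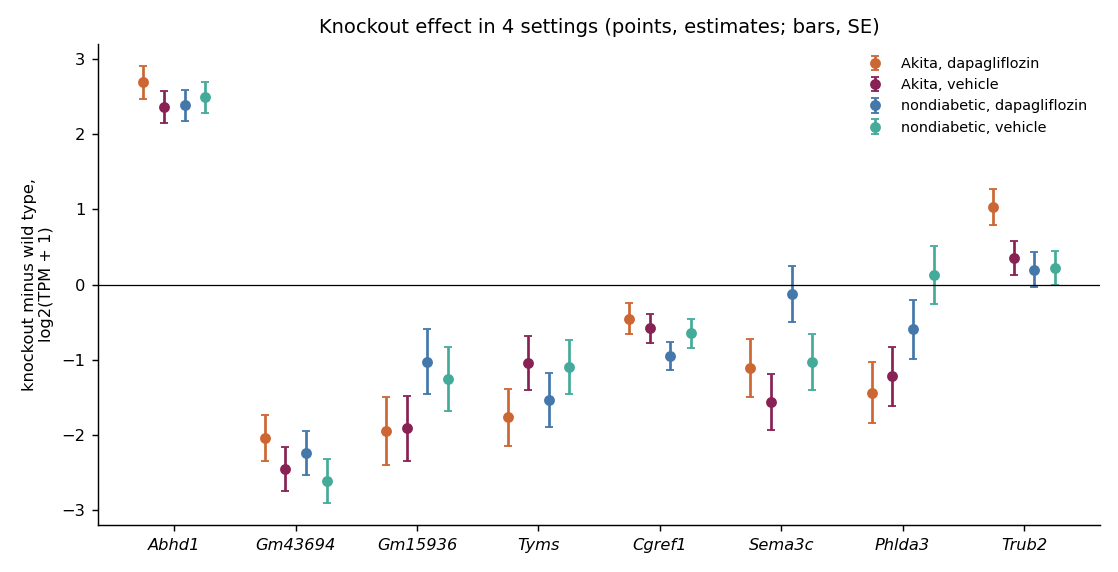
Knockout minus wild type (log2(TPM + 1), points with SE bars) for 8 genes in the 4 settings. The points of each of Abhd1 and Gm43694 lie close together across the 4 settings, Abhd1 being higher and Gm43694 lower in knockout. Trub2 lies at 1.04 in Akita on dapagliflozin and between 0.20 and 0.36 in the others.

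The next genes by p-value did not pass and are given as values. Trub2, which encodes a pseudouridine synthase that works on mitochondrial RNA, held 25.9, 42.4, 22.7, 18.1 and 25.6 TPM in wild type and 49, 56.8, 58.3, 73.2, 46 and 46.5 TPM in knockout. The Trub2 groups did not overlap, with wild-type replicate 3 nearest to the knockouts. The difference of Trub2 was 1.04 log2 units (95% interval 0.55 to 1.52, adjusted p = 0.198). Without that library the adjusted p was 0.049 and Trub2 passed, as it did when libraries were weighted by their quality (0.0254). Trub2 differed by 0.36, 0.20 and 0.22 in the other 3 settings. Gprc5b, an orphan G-protein-coupled receptor, held 1.53, 1.22, 1.24, 1.63 and 9.96 TPM in wild type and 14.1, 16.9, 26.3, 5.5, 11.2 and 4.42 TPM in knockout (1.90, adjusted p = 0.521). A single wild-type library of Gprc5b reached the range of the knockouts. Plag1, a zinc finger transcription factor (1.10), Egfl8, a secreted protein with EGF repeats (1.22), Xkr8, a phospholipid scramblase (0.96), the pseudogene Krt8-ps (1.07), Cdk5rap2, a centrosome protein (0.60), the pseudogene Tdg-ps (0.92) and Mcur1, a regulator of mitochondrial calcium uptake (0.35), completed the 10 higher named genes. Reads of Krt8-ps and Tdg-ps may come from the parent genes, since how such reads were assigned is not given in the sources used here.

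On the lower side, Lad1, an anchoring filament protein of basement membranes, held 93.1, 120, 91.5, 98.7 and 116 TPM in wild type and 84.6, 60.2, 56, 63.1, 72.1 and 80.7 TPM in knockout. The Lad1 groups did not overlap, and the difference was -0.58 (SE 0.15, adjusted p = 0.521). Ggt6, of the gamma-glutamyltransferase family, went from 6.32 ± 1.93 to 2.55 ± 1.36 TPM (-1.13, adjusted p = 0.521). Sac3d1 (-1.22), Inava, an activator of innate immune signalling (-0.89), the antisense transcript Ttc39aos1 (-1.87) and Gnai1, an inhibitory G-protein subunit (-0.62), followed. The antisense transcript may share reads with its partner on the other strand. Phlda3, a p53 target that restrains Akt signalling, held 6.22, 6.98, 5.16, 6.77 and 5.2 TPM in wild type and 3.1, 0.884, 0.613, 3.51, 1.41 and 1.21 TPM in knockout. The Phlda3 groups did not overlap (-1.44, SE 0.41, adjusted p = 0.915). Phlda3 differed by -1.23 in Akita on vehicle, -0.60 in nondiabetic on dapagliflozin and 0.13 in nondiabetic on vehicle, and the difference of this setting from their mean was -0.87 (95% interval -1.82 to 0.07, adjusted p = 1).

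Gene groups were described by their counts, beside a median of -0.01, 48.9% above 0 and 3.3% at an unadjusted p under 0.05 over all tested genes. No member of any list passed the test other than Slc5a1. Among 11 tested glucose and fructose carriers, the 10 beside Slc5a1 had no unadjusted p under 0.05, and their median was -0.03. Slc5a10, the sodium-coupled fructose and mannose carrier, stood at 849 ± 131 and 840 ± 286 TPM in wild type and knockout. Slc2a2, the basolateral glucose exit carrier GLUT2 of the early segments, stood at 25.3 ± 8.67 and 23.3 ± 7.88 TPM. Slc2a1, the exit carrier GLUT1, stood at 13.8 ± 1.9 and 14.2 ± 3.29 TPM, with an interval of the difference from -0.40 to 0.42. For Slc2a5, the fructose carrier GLUT5, the values were 405 ± 127 and 407 ± 217 TPM.

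The groups of sugar metabolism lay near 0. The 10 genes of ChREBP and MondoA, factors that sense glucose, and of their targets had a median of 0.08 and none at an unadjusted p under 0.05. Txnip, the thioredoxin-binding protein whose transcription follows glucose in many cells, stood at 117 ± 19.7 and 124 ± 31.5 TPM (0.07, 95% interval -0.39 to 0.53). Pklr, the pyruvate kinase target of ChREBP, stood at 93.6 ± 28.7 and 104 ± 29.9 TPM. The 10 polyol and fructose genes had a median of -0.09, 13 gluconeogenic genes -0.11 and 13 glycolytic genes -0.16, with 0 at an unadjusted p under 0.05 in each. Pck1, the gluconeogenic control enzyme, had means of 1437 and 1653 TPM (0.24, 95% interval -0.41 to 0.89). Akr1b3, the aldose reductase that turns glucose into sorbitol, stood at 67.2 ± 24.6 and 63.7 ± 28.3 TPM.

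Among 26 genes of fatty acid oxidation and PPAR alpha targets, 7 were above 0, the median was -0.22, and 3 had an unadjusted p under 0.05, all with lower values in knockout, against 1.59% of all tested genes. Decr1, the mitochondrial dienoyl-CoA reductase, stood at 62 ± 5.53 and 43.6 ± 10.1 TPM (-0.53, 95% interval -0.94 to -0.12). Acot1 and Acot2, a cytosolic and a mitochondrial acyl-CoA thioesterase, differed by -0.70 and -0.51. The median of the same list was -0.04, 0.00 and 0.11 in Akita on vehicle, nondiabetic on dapagliflozin and nondiabetic on vehicle. Acot1 and Acot2 are close copies, and how reads shared between them were assigned is not given in the sources used here. The 12 genes of ketone and monocarboxylate handling had a median of -0.07. Of these, Oxct1, which lets cells burn ketone bodies, stood at 2058 ± 416 and 1638 ± 435 TPM (-0.35, 95% interval -0.79 to 0.10). The 21 genes of cholesterol and fatty acid synthesis had a median of 0.06.

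Of 19 tested p53 targets, 17 were below 0 and the median was -0.28. An unadjusted p under 0.05 was reached by 5, each lower in knockout (1.59% of all tested genes were lower at that p): Phlda3, Sesn2 (-0.67), Ccng1 (-0.60), Gdf15 (-0.92) and Tnfrsf10b (-0.47). Sesn2, a stress-induced brake on mTORC1, stood at 11.8 ± 2.38 and 7.24 ± 2.55 TPM, and Ccng1, cyclin G1, at 74.3 ± 26.7 and 45.8 ± 6.25 TPM. None of the other 14 reached it. The cell cycle inhibitor Cdkn1a stood at 1.62 ± 0.5 and 1.3 ± 0.46 TPM (-0.19), Mdm2, the ligase that degrades p53, at 74.7 ± 9.31 and 66.8 ± 13.2 TPM (-0.17), and Bax, which opens the mitochondrial membrane in apoptosis, at 22.6 ± 2.82 and 22.4 ± 6.85 TPM (-0.06). Among the other inducers of apoptosis, Bbc3 had higher values in knockout, at 1.14 ± 1.63 and 2.45 ± 2.43 TPM (0.77), while Pmaip1 (-0.30) and the nuclease Aen (-0.47) had lower ones. The list's median was -0.36 in Akita on vehicle, -0.19 in nondiabetic on dapagliflozin and 0.04 in nondiabetic on vehicle. It ranged from -0.33 to -0.17 over the alternative settings, and the values nearest 0 came without wild-type replicate 1 (-0.17), without knockout replicate 1 (-0.18) and when adjusted for summed TPM (-0.17). That sum was 1603191 ± 304879 in wild type and 1368313 ± 179083 in knockout (exact permutation p = 0.156).

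The 10 osmolyte carriers and targets of Nfat5, the factor that responds to high tonicity, had a median of 0.46 with 8 above 0, and 0 at an unadjusted p under 0.05. Slc6a12, the betaine carrier, held 0.372 to 1.29 TPM in wild type and 1.1 to 4.25 TPM in knockout (1.02, 95% interval -0.18 to 2.21). Slc6a6, the taurine carrier, stood at 436 ± 98.5 and 589 ± 182 TPM (0.40, 95% interval -0.10 to 0.90), and Slc5a3, the myo-inositol carrier, at 50.8 ± 8.11 and 76.2 ± 24.6 TPM (0.53, 95% interval -0.29 to 1.35). The list's median was 0.16, 0.24 and 0.17 in the other 3 settings. Beside it, 14 tested markers of other nephron segments had a median of 0.30, 10 of them above 0. Of these, Scnn1g, a subunit of the epithelial sodium channel of the collecting duct, differed by 0.88 (SE 0.36), and Aqp2, the water channel of the collecting duct, stood at 25.6 ± 7.74 and 43.8 ± 23.8 TPM. The summed level of that marker list was 646 to 1229 TPM in wild type and 533 to 1269 TPM in knockout (exact permutation p = 0.455). Adjusted for the other-cell score the osmolyte median was 0.44, and adjusted for summed TPM 0.36. The other-cell score averages markers of other nephron segments, endothelium, immune cells and stroma together, so it does not single out collecting duct RNA. The part of collecting duct RNA in the osmolyte values was not tested.

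The 20 carriers of sodium, phosphate and bicarbonate had a median of 0.17 with 16 above 0, and 0 at an unadjusted p under 0.05. Slc9a3, the sodium-hydrogen exchanger NHE3, stood at 19.9 ± 9.27 and 24.7 ± 7.91 TPM (0.36, 95% interval -0.51 to 1.23). With the score of the early segments S1 and S2 as a covariate that median was 0.04. Slc34a1 and Slc4a4 belong both to that score and to this list, so the adjusted median is not independent of the list. The part of S1 and S2 RNA in it was not tested. The 11 markers of S1 and S2 themselves had a median of 0.33 with 8 above 0, and their summed level was 837 to 1618 TPM in wild type and 643 to 2107 TPM in knockout (exact permutation p = 0.779). The 18 amino acid carriers had a median of 0.11, 21 carriers of organic ions -0.14, 9 urate genes -0.08, 14 genes of megalin and cubilin uptake -0.10 and 23 cytochrome P450 and conjugation enzymes 0.00. None of the members of these 5 lists had an unadjusted p under 0.05. Among 10 genes of the renin-angiotensin system, Ren1, renin, held 2.17 to 5.28 TPM in wild type and 3.79 to 30.9 TPM in knockout (1.08, 95% interval -0.12 to 2.28), the highest value being knockout replicate 6.

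Stress lists had few members apart from 0. The 19 genes of tubule injury had a median of 0.22 and 0 at an unadjusted p under 0.05. Havcr1, the injury marker KIM-1, stood at 5.82 ± 5.32 and 5.01 ± 3.09 TPM. The 18 hypoxia genes had a median of 0.00, and 28 interferon and MHC class I genes 0.13, against 0.44, 0.42 and 0.00 in the other 3 settings. Of 19 NRF2 and glutathione genes (median -0.13), Ephx1, the microsomal epoxide hydrolase, stood at 37.2 ± 17.2 and 20.5 ± 4.95 TPM (-0.73, 95% interval -1.43 to -0.03). Of 16 genes of the integrated stress response (median -0.04), Asns, asparagine synthetase, held 0.303 to 1.48 TPM in wild type and 0.796 to 6.4 TPM in knockout (1.07, 95% interval 0.11 to 2.03). Of 16 thymidylate and folate genes (median -0.22), Tyms and Mthfd2, the mitochondrial folate enzyme (-0.96, 95% interval -1.83 to -0.08), had an unadjusted p under 0.05. The 17 immediate early genes had a median of 0.16, 17 clock genes 0.01 and 17 proximal tubule transcription factors 0.00, with 0 at an unadjusted p under 0.05.

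Markers of the S3 segment, other than Slc5a1, had a median of -0.09 over 11 genes with 0 at an unadjusted p under 0.05. Their sum, Slc5a1 included, was 19625 ± 5725 TPM in wild type and 16302 ± 4407 TPM in knockout (exact permutation p = 0.312), most of it from Kap, the androgen-driven kidney protein, at 11447 ± 5375 and 8153 ± 3529 TPM. Of 12 endothelial markers 11 were above 0, with a median of 0.14 and none at an unadjusted p under 0.05. Of 13 macrophage and dendritic cell markers 7 were above 0, with a median of 0.00. Their summed level was 470 ± 24.2 TPM in wild type and 529 ± 53.9 TPM in knockout (exact permutation p = 0.0433, 0.26 after adjustment over 12 properties), of which Csf1r made up 295 ± 20.8 and 336 ± 57 TPM, while the defining genes C1qa, C1qb and Cd68 had means of 1.45 to 2.96 TPM in wild type. The 11 stromal markers had a median of -0.07. No lymphocyte marker passed the filter on low values. Slc5a1, Abhd1 and Gm43694 passed when the fit was adjusted for the other-cell score, the percent of mitochondrial rRNA or summed TPM. The part of the macrophage and mitochondrial differences in the other genes was not tested.

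**Figure D5:**
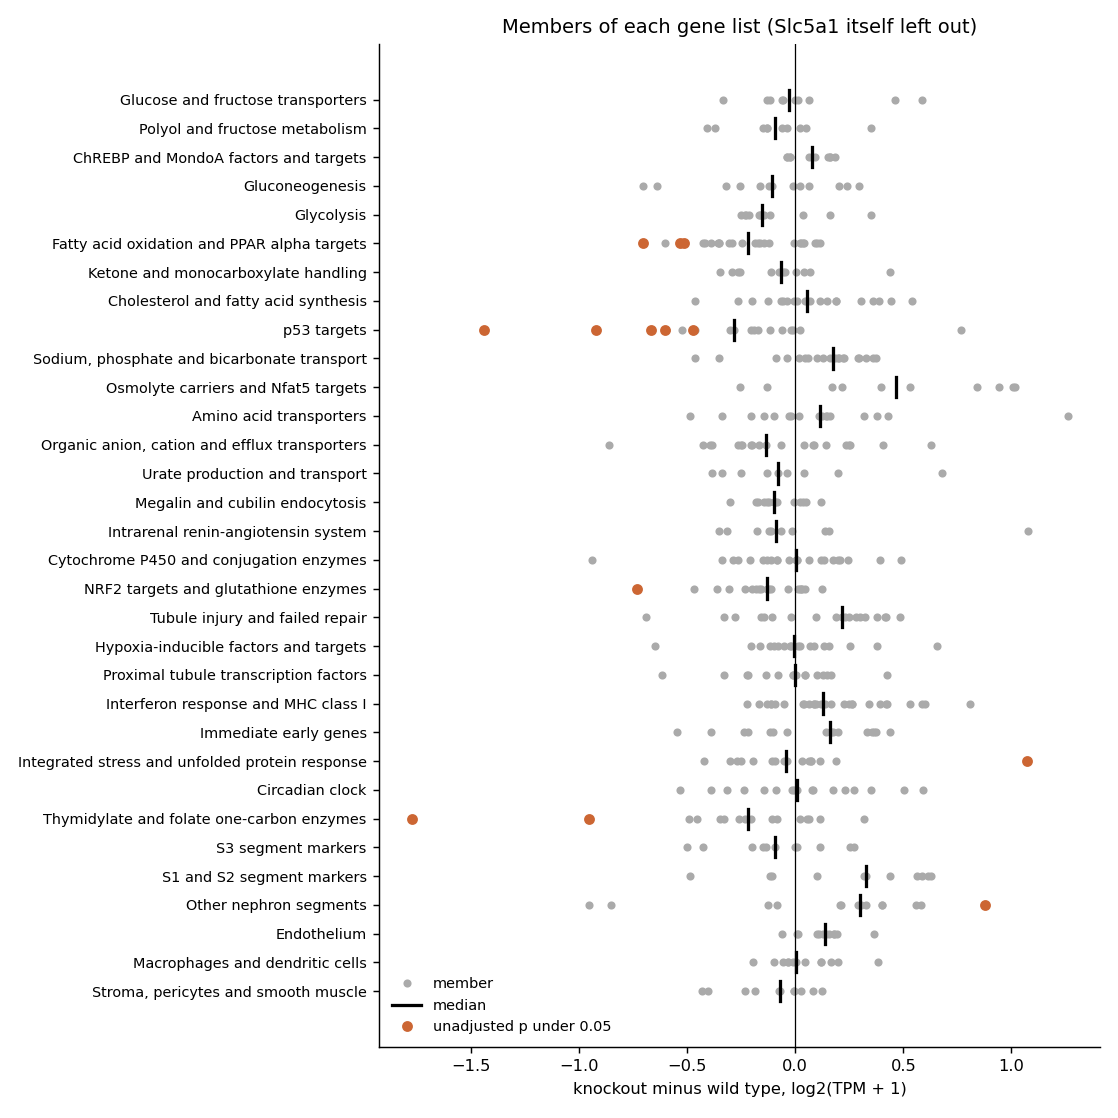
Knockout minus wild type on the log2(TPM + 1) scale for the tested members of 32 gene lists, Slc5a1 itself left out. Grey points are members, coloured points members with an unadjusted p under 0.05, and the black bar is the list's median; the p53 list lies mostly below 0 (median -0.28) and the osmolyte list mostly above it (0.46).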

How the data were processed

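The authors deposited a table of log10 TPM per gene, on GRCm38 per the submitters' processing notes; its name says that outliers were removed. The sources used here do not give the aligner, annotation, scaling or depth. RNA (0.5 ng) was made into stranded total RNA libraries, per the labels' protocols. Values were turned back to TPM, with blank cells as 0. Of 52 libraries, 51 summed to more than the nominal TPM total. Of 19068 genes, 19033 matched GENCODE vM21, and 15424 averaged at least 1 TPM and were tested.

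A model of 9 group means on log2(TPM + 1) was run in limma 3.58.1 (R 4.3.3, moderated with a trend and robustly, tested on simulated data). A gene passed at a Benjamini-Hochberg adjusted p under 0.05 over all tested genes. Library properties had two-sided exact permutation tests, with a smallest possible p of 0.00433.

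Named genes are Slc5a1, Slc5a2, those that passed, the 10 of smallest p in each direction (predicted genes left out unless they passed) and up to 3 of smallest p in each of 33 lists; further list members are given for their role, and some genes are not reported here. The comparison, lists and region were chosen with earlier results of these data known, and the mean of the other 3 settings was added after seeing the data. Alternatives were a pseudocount of 0.1, no filter, 2 rescalings, array weights, fitting only the compared groups, 5 covariates and leaving out libraries.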

Additional observations from a re-analysis of the deposited data

Results flagged for a closer look

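Of 72 sets of values checked for a library far from the rest of its group (24 genes and 12 library properties, in both groups), 8 had one. Chance gives about 1 in 20 for independent values with a normal spread. That spread was not checked here and several flagged sets share a library, so an excess over chance was not shown. Wild-type replicate 4 was lowest in Slc5a1 (42.8 TPM), highest in Gm43694 (9.18 TPM) and highest in the summed lymphocyte markers (5.74 TPM). Knockout replicate 4 was lowest in Mcur1 (98.9 TPM), lowest in Sac3d1 (0 TPM), lowest in the number of genes with a value (16947) and highest in the summed lymphocyte markers (6.19 TPM). Wild-type replicate 6 was highest in Gprc5b (9.96 TPM). Slc5a1, Abhd1 and Gm43694 passed in each fit without one of these libraries.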

How the results depend on the processing

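Slc5a1, Abhd1 and Gm43694 passed under each alternative tried except the fit of the compared groups alone, where Slc5a1 and Abhd1 passed and 1 lower gene was called in place of 2 because the adjusted p of Gm43694 was 0.275. Over all alternatives the log2 change of Abhd1 ranged from 2.55 to 2.90, that of Slc5a1 from -6.52 to -5.26 and that of Gm43694 from -3.78 to -1.89, the lowest values of the last 2 being those with a pseudocount of 0.1. Higher genes numbered 2 in place of 1 with array weights, with Trub2 added (log2 change 1.03, adjusted p = 0.0254). Leaving out single libraries gave 1 to 2 higher genes, the second being Trub2 without Akita wild-type replicate 3 (1.21, adjusted p = 0.049), and 2 lower genes throughout. The adjusted p of Tyms ranged from 0.0511 to 0.841 and that of Trub2 from 0.0254 to 0.999. Genes at an unadjusted p under 0.05 numbered 402 to 865, against 509, the highest with array weights. The tests of a difference between settings called 0 genes under every alternative, and the mean of the other 3 settings called 6 to 10. Rescaling by the median ratio put the median over all genes at 0.00 with 50.3% above 0, and rescaling without mitochondrial genes at 0.04 with 56.99% above 0. The sign of Psat1, Laptm5 and Col3a1, which did not pass, changed without single libraries. No paired analysis was possible because the labels give no replicate numbers, and those used here only name the libraries. Read depth is not known, so values near 0 TPM cannot be given a counting error.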
